A study of Arabidopsis thaliana with 16 samples.

Results

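Among the 27628 genes counted in Arabidopsis seedlings, 119 had RNA that fell in wild-type seedlings at 37 °C while their ribosome footprints fell much less, or did not fall. They were chosen in the wild type Col-0 alone, on counts scaled to the library total (CPM, counts per 1e6), from the mean of both libraries of a group. A gene was taken if it had at least 5 RNA CPM and at least 2 footprint CPM at 22 °C, if its RNA ratio (37 °C over 22 °C) was at most 0.5, and if its footprint ratio was at least 4 times its RNA ratio. Histone genes, organelle genes and 2 further genes, CAF1a and HSPRO2, were left out by name, which removed CAF1a, HSPRO2 and the histone gene AT3G46320 from those that met the values. Of 7061 genes that met the level and RNA conditions, the other 6942 had a footprint ratio under 4 times the RNA ratio and are the genes the members are set beside.

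The groups were fust1 seedlings at 37 °C, fust1 seedlings at 22 °C, Col-0 seedlings at 37 °C and Col-0 seedlings at 22 °C, all 10 days old, each with 2 RNA-seq and 2 Ribo-seq libraries (16 libraries in all). The labels state neither the allele of the fust1 mutant, nor the length of the heat treatment, nor the number of seedlings per sample, and the design text calls the libraries of a group biological replicates. The study set the mutant beside the wild type to ask how heat changes translation. Totals ran from 9402134 to 12737375 counts per RNA library and from 6175906 to 13968790 counts per footprint library. The labelled tissue was whole seedling. The defining shoot genes summed to 18692 to 40897 RNA CPM and the 8 root markers to 8.50 to 124 RNA CPM over the libraries. These sums rest on a few genes. Median RNA over the libraries was 12125 CPM for the shoot gene RBCS1A but 1.20 for GL1. Among root markers it was 20.7 CPM for SCR and 17.3 for PHT1;1. It was only 0.308 CPM for COBL9, 0.461 for RHD6, 0.391 for EXPA7 and 0.103 for RHS12. SAG12, a marker of senescent leaves, was at 0 in every library. No spike-in was named in the labels, so every level is a share of a library.

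RNA-seq here counted polyadenylated RNA, which a gene loses when transcription stops, when the transcript is degraded or when its poly(A) tail is shortened below what oligo-dT beads can hold. Ribo-seq counted the short pieces of RNA that a ribosome shields from RNase, so a gene's footprints follow both how much RNA it has and how densely ribosomes sit on it. The footprint change beyond the RNA change is called translational efficiency (TE), a ratio of the 2 assays that says nothing about the speed of ribosomes. Heat is known to stop the synthesis and hasten the decay of many plant transcripts and to move ribosomes off most of them, while heat shock transcripts are made and translated.

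The name "footprints held" described a minority of the members. In Col-0, 49 of 119 members had a footprint ratio of at least 0.5, against a background of 26.3 % of the 14038 genes at these levels, and the rule used these values, so nothing is read from that share. Of these 49, 20 had a ratio of at least 1, and 29 lay between 0.5 and 1. Another 53 members had a footprint ratio between 0.1 and 0.5, and 17 were under 0.1. The members are therefore genes whose footprints fell less than their RNA, and the larger number of them lost footprints too. Their RNA ratio in Col-0 had a median of 0.0709 (quartiles 0.0274 and 0.143), and 74 members were at or under 0.1. Their footprint ratio had a median of 0.419 (quartiles 0.183 and 0.800), against 0.153 in the 6942 other genes, whose RNA ratio had a median of 0.300.

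Many of these Col-0 values rest on few reads. Over both Col-0 37 °C libraries 47 members had at most 10 RNA reads and 84 had at most 30, while 17 had at most 10 footprint reads. In 6 members (AT1G09820, AT2G03200, AT3G20640, AT4G38062, AT5G52950 and TRM34) there were 0 RNA reads. Against a floor of 3 reads over the group, their RNA was at least 37.1-fold to 107-fold lower at 37 °C than at 22 °C. TRM34, a member of the TRM family of microtubule-associated proteins, also had 0 footprint reads at 37 °C, so it met the rule as 0 against 0. At the threshold itself, AT1G06380, AT4G32800 and AT5G39980 had footprint ratios 4.003, 4.01 and 4.02 times their RNA ratios, and TIP4;1, AT2G26030 and LBD41, just outside, had 3.99, 3.95 and 3.95 times.

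The membership depended on single libraries and on the scale. With Col-0 37 °C RNA replicate 2 as the only RNA library at 37 °C, 466 genes met the rule, 100 of them among the 119. With Col-0 37 °C RNA replicate 1 alone, 115 genes met it, 72 of them among the 119. With library sizes adjusted by TMM (a scaling that sets the bulk of genes to no change), 238 genes met it, 66 of them among the 119. Because Col-0 chose the members, their Col-0 values below are descriptions. The tests compare the fust1 libraries, which the rule did not use, with a spread estimated over both genotypes.

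In fust1 mean RNA was lower at 37 °C than at 22 °C in 113 of 119 members. Most genes were lower too: the upper quartile of the fust1 RNA ratio was 0.794 over all 14038 genes at these levels. Over the 6942 other genes whose RNA fell it was 0.466. The footprint ratio was at least as high as the RNA ratio in 79 members, of which 71 had fewer footprints at 37 °C than at 22 °C and 8 had at least as many. Summed over the 119 members, their share of all RNA reads was 0.0587 % and 0.0367 % in fust1 at 37 °C, against 0.179 % and 0.211 % in fust1 at 22 °C. Their share of footprints was 0.131 % and 0.132 % in fust1 at 37 °C, against 0.201 % and 0.228 % in fust1 at 22 °C. Both shares were lower in each 37 °C library than in each 22 °C library, and the RNA share was the further down. A few genes carried the footprint share: AT4G32060, AT1G19530, ADH1, PDC1 (AT4G33070) and AT5G21940 held 15539 of the members' 28626 footprint reads in fust1 at 37 °C. Without these 5, the footprint share was 0.0577 % and 0.0624 % at 37 °C, against 0.171 % and 0.193 % at 22 °C, and the RNA share 0.0316 % and 0.0208 % at 37 °C, against 0.127 % and 0.157 % at 22 °C. In Col-0, for description, the RNA share was 0.0329 % and 0.0280 % at 37 °C and 0.163 % and 0.19 % at 22 °C, and the footprint share 0.132 % and 0.126 % at 37 °C and 0.197 % and 0.209 % at 22 °C.

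On the CPM scale the fust1 RNA ratio of the members had a median of 0.183, and 105 of 119 were at or under 0.5, against a background of 47.5 %. Both fust1 37 °C RNA libraries lay under both 22 °C libraries in 93 members, against a background of 74.8 %. The footprint ratio in fust1 had a median of 0.274. Of the 119, 39 had a ratio of at least 0.5, 12 of them at least 1, against a background of 26.7 % for at least 0.5. Footprint libraries at 37 °C lay under both 22 °C libraries in 96 members (background 90.8 %), above both in 8 (background 4.28 %), and overlapped in 15.

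The footprint ratio divided by the RNA ratio is the measure the rule used in Col-0, taken here in libraries it did not use. In fust1 its median over the members was 1.63 (quartiles 0.825 and 2.69), against 0.557 in the 6942 other genes whose RNA fell and 0.573 in all 14038 genes at these levels. It was at least 2 in 50 of 119 members (42.0 %), against a background of 4.74 %. It reached the 4 of the rule in 16 members (13.4 %), against a background of 0.876 %, and it was under 1 in 40 members (33.6 %), against 77.5 % of the other genes. So most members did not reach in fust1 the margin that chose them in Col-0, and in 40 of them the footprint ratio was under the RNA ratio. Of these 40, ADH1, HB1, SUS4 and PDC1 (AT4G33070) had mean footprints above those at 22 °C, with RNA further up. The median over the 49 members with a Col-0 footprint ratio of at least 0.5 was 1.98, and over the other 70 it was 1.04.

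**Figure D1:**
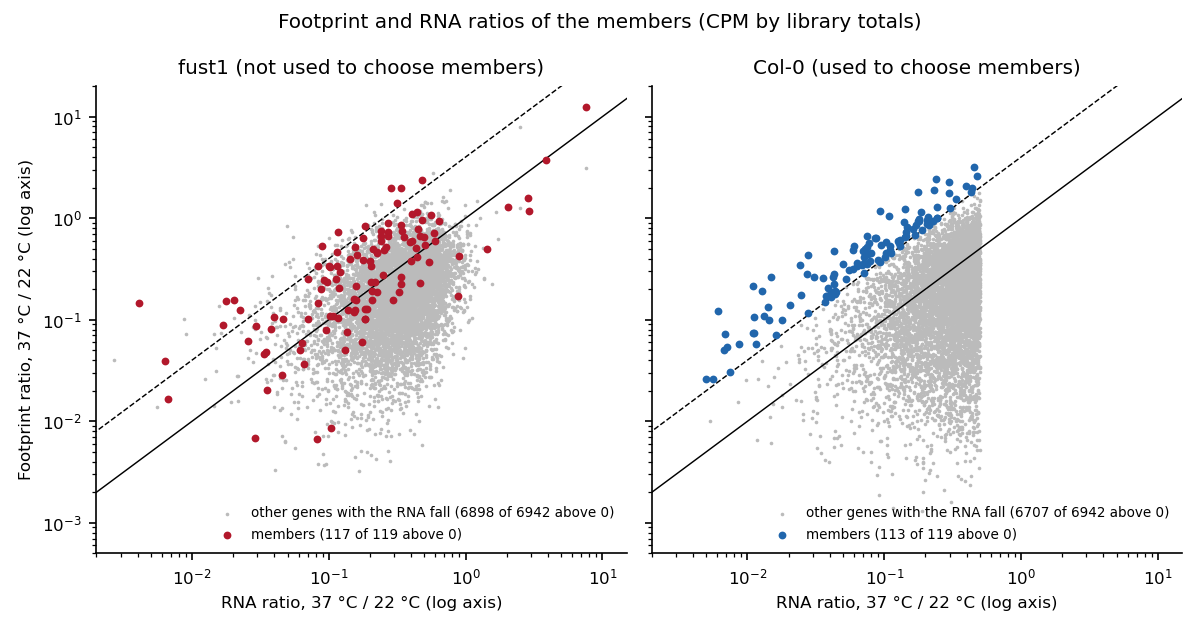
Footprint ratio against RNA ratio (37 °C over 22 °C, CPM by library totals, log axes) of the members, in fust1 (left, red) and in Col-0 (right, blue), with the other genes whose RNA fell in grey; the solid line marks equal ratios and the dashed line a footprint ratio 4 times the RNA ratio. A member with 0 reads at 37 °C in either assay is not drawn, which leaves 117 members in fust1 and 113 in Col-0. In Col-0 the rule puts every member drawn on or above the dashed line, and in fust1 15 of the 117 are there (AT5G14650, with 0 RNA reads, is the other of the 16 members at or past 4 times), the rest being spread on both sides of the solid line.

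The median in fust1 was higher in members with more RNA reads in Col-0 at 37 °C. Among the 47 members with at most 10 RNA reads over the Col-0 37 °C libraries, the fust1 ratio of ratios had a median of 0.934. Among the 37 with 11 to 30 reads the median was 1.68, and among the 35 with over 30 reads it was 2.21. The margin of 4 was reached by 7, 3 and 6 members of these classes in that order. A Col-0 footprint ratio of at least 0.5 was found in 2, 18 and 29 members of these classes, in that order. The rule ties these Col-0 values together: the footprint ratio was 4.57 to 7.42 times the RNA ratio (quartiles over the members). A held footprint ratio in Col-0 thus came with a higher RNA ratio, and nothing is read from that split. The part of read depth in the fust1 medians was not tested.

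**Figure D2:**
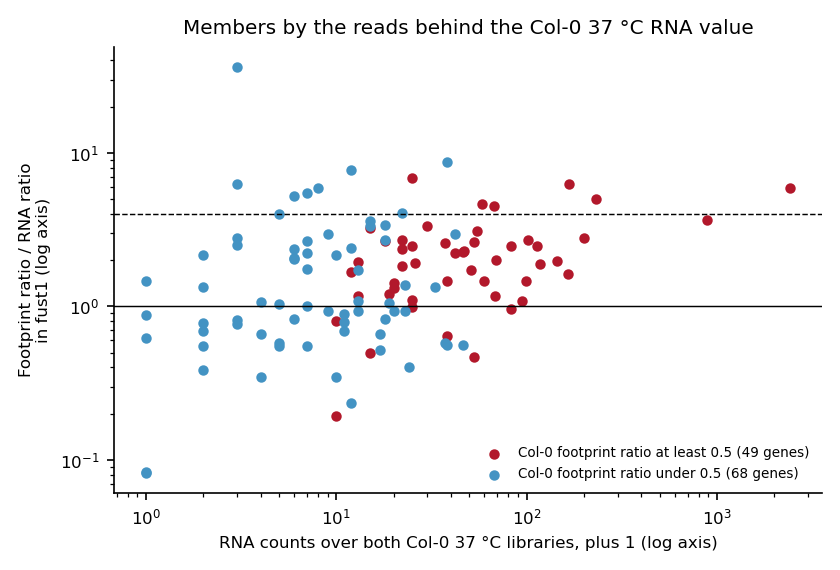
Footprint ratio over RNA ratio in fust1 (log axis) against the RNA reads over both Col-0 37 °C libraries plus 1 (log axis), 1 point per member, red where the Col-0 footprint ratio was at least 0.5 and blue where it was lower; lines mark 1 and 4. Most members with over 30 reads lie above 1 (median 2.21), and those with at most 10 reads lie on both sides of it (median 0.934).

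In the fit over all genes (edgeR quasi-likelihood test, TMM scaling, Benjamini-Hochberg adjusted p under 0.05), TE in fust1 was called higher at 37 °C in 39 of 119 members and lower in 0, with 2 lower at an unadjusted p under 0.05. The background was 12.5 % of 17816 genes called higher and 15.7 % called lower, and among the 6942 other genes 11.2 % were called higher and 17.0 % lower. By DESeq2, 41 members were called higher and 0 lower. The background above is that of edgeR and none is given for DESeq2, so nothing is read from these counts. The median log2 TE change was 1.48 over the members, 0.01 over all genes tested and -0.09 over the other genes. RNA was called lower in 56 members (47.1 %, background 17.9 %) and higher in 4 (background 18.8 %), and among the 6942 other genes 38.0 % were called lower and 1.15 % higher. Footprints were called higher in 39 members (32.8 %, background 27.6 %) and lower in 43 (36.1 %, background 31.2 %), and among the other genes 10.03 % were called higher and 52.5 % lower. In 28 members TE was called higher and RNA lower, and 23 of the 39 members with higher TE had a Col-0 footprint ratio of at least 0.5. No share over all genes is given for these joint counts, so nothing is read from them. Of the 35 members with over 30 RNA reads in Col-0 at 37 °C, 21 were called higher in TE, 26 higher and 5 lower in footprints, and 14 lower in RNA.

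The scale sets what "higher" means for footprints. On library totals the median gene had a log2 footprint change of -1.80 in fust1, against -0.13 on the TMM scale, a shift of -1.67, and for RNA the shift was -0.92 and for TE -0.74. On library totals 6 members, against 39 on the TMM scale, were called higher in footprints (background 3.69 %), 92 (77.3 %) were called lower in footprints (background 82.0 %), 90 (75.6 %) were called lower in RNA (background 51.3 %) 24 were called higher in TE (background 3.61 %) and 3 (TRM34, AT4G12870 and AT4G38062) were called lower in TE (background 33.3 %). The median log2 TE change of the members on library totals was 0.71, against -0.74 for all genes. Leaving out fust1 22 °C RNA replicate 2 or fust1 37 °C RNA replicate 2 left 37 or 34 members with RNA called lower, and the count of members with higher TE ranged from 27 to 49 over the 8 fits that left out 1 fust1 library each.

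The members differed in their roles, and the named ones are given by role below. Of the 119, all protein coding, 50 had a symbol in the name table, and 33 were grouped by what their names say, after the members were known. The other 86 were placed in no group, and some of them may share these roles. Each role count below is thus of the grouped members only. Over all 119, TE was called higher in 39 and its log2 change was above 0 in 100. The role groups are small, and no trait of a role is read from their counts.

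Among the grouped members 9 were transcription regulators, of which TE in fust1 was called higher in 3 (background 12.5 %), with log2 changes above 0 in 8. ERF104, an ethylene response factor that acts in defence signalling, had 8.51 and 11.7 RNA CPM in fust1 at 37 °C, against 92.9 and 81.4 at 22 °C. Its footprints were 10.4 and 4.19 CPM in fust1 at 37 °C, against 8.29 and 11.7 at 22 °C. So its RNA separated cleanly between temperatures, while its footprint libraries overlapped. RNA fell by 2.18 ± 0.25 on the log2 scale (SE, edgeR, adjusted p = 7.24e-05), and TE rose by 3.41 ± 0.47 (edgeR, adjusted p = 5.34e-05). Its footprint change was 1.22 ± 0.32 on the TMM scale (edgeR, adjusted p = 0.00181), but -0.47 on library totals and 0.33 (adjusted p = 0.432) without fust1 37 °C footprint replicate 1. In Col-0, for description, ERF104 had 8.31 and 6.62 RNA CPM at 37 °C and 26.8 and 35.5 at 22 °C, and 6.54 and 8.10 footprint CPM at 37 °C and 2.91 and 3.05 at 22 °C.

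TEM1 (TEMPRANILLO 1), a repressor of flowering, had higher TE although its footprints fell. It had 2.97 and 2.42 RNA CPM in fust1 at 37 °C, against 92.2 and 92.9 at 22 °C, and 2.86 and 4.28 footprint CPM at 37 °C, against 36.8 and 45.5 at 22 °C. Both assays fell without overlap, RNA by 4.18 ± 0.23 (edgeR, adjusted p = 1.93e-07) and footprints by 1.83 ± 0.23 (edgeR, adjusted p = 1.11e-07) on the log2 scale. TE rose by 2.35 ± 0.32 (edgeR, adjusted p = 4.57e-05). DAG2, a Dof-type factor that promotes germination, had 4.41 and 5.28 RNA CPM in fust1 at 37 °C, against 9.02 and 13 at 22 °C, and its footprints were 5.31 and 6.62 CPM at 37 °C, against 6.13 and 4.22 at 22 °C. Its footprint libraries overlapped on CPM, and its TE rose by 2.11 ± 0.48 (edgeR, adjusted p = 0.00361). The footprint change of DAG2 on the TMM scale was 1.87 ± 0.29 (edgeR, adjusted p = 3.80e-06).

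GT2L (AT5G28300), a trihelix factor, lost both RNA and footprints. It had 1.33 and 1.07 RNA CPM in fust1 at 37 °C, against 39.5 and 44.0 at 22 °C, and 0.102 and 0 footprint CPM at 37 °C, against 8.22 and 6.80 at 22 °C. RNA fell by 4.19 ± 0.35 on the log2 scale (edgeR, adjusted p = 5.33e-06), and the TE change of -1.32 ± 1.13 was not called (edgeR, adjusted p = 0.412). In Col-0 the same gene was a member with 0.638 and 0.486 footprint CPM at 37 °C. FRU (FIT), which controls the iron deficiency response of roots, WRKY36, BBX19, TINY and STOP2 were the remaining genes of this group, and none of them passed the TE test.

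In the ubiquitin system, which tags proteins for degradation, TE in fust1 was called higher in 4 of the 5 members placed in this group (background 12.5 %). Ungrouped members may belong to this system too, so nothing is read from that share. PUB22, a U-box ubiquitin ligase that limits immune signalling, had 0.923 and 0.627 RNA CPM in fust1 at 37 °C, against 5.23 and 8.19 at 22 °C. Its footprints were 5.93 and 5.62 CPM in fust1 at 37 °C, against 12 and 12.9 at 22 °C. Both assays separated without overlap on CPM, with RNA the further down. On the TMM scale RNA fell by 2.18 ± 0.52 in log2 (edgeR, adjusted p = 0.00786) and TE rose by 2.75 ± 0.48 (edgeR, adjusted p = 0.000452). PUB22 footprints, lower on CPM, were called higher on that scale, by 0.57 ± 0.24 (edgeR, adjusted p = 0.0467). The edgeR RNA call ended without fust1 22 °C RNA replicate 2 (-1.94, adjusted p = 0.0536) or without fust1 37 °C RNA replicate 2 (-1.98, adjusted p = 0.0556). In Col-0 at 37 °C PUB22 was down to 0.171 and 0.195 RNA CPM.

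EDL2, an F-box protein related to the light signalling factor EID1, had 4.0 and 3.58 RNA CPM in fust1 at 37 °C, against 9.95 and 14.1 at 22 °C, with footprints of 9.91 and 13.7 CPM at 37 °C, against 10.7 and 5.94 at 22 °C. Its RNA separated and its footprints overlapped. TE rose by 2.90 ± 0.49 (edgeR, adjusted p = 0.000311), and the footprint change of 2.17 ± 0.26 on the TMM scale (edgeR, adjusted p = 5.19e-08) was 0.51 (adjusted p = 0.0816) on library totals. WAVH1, a RING ligase of the WAVY GROWTH family that acts in root growth, rose in TE by 2.47 ± 0.49 (edgeR, adjusted p = 0.00127). BRH1, a brassinosteroid-responsive RING-H2 gene, had 7.66 and 6.62 footprint CPM in fust1 at 37 °C, against 149 and 148 at 22 °C, so its footprints were far from held. Its TE call (1.18 ± 0.41, edgeR, adjusted p = 0.0382) ended on library totals (0.43, adjusted p = 0.420) and in 5 of 8 fits without 1 library, the lowest value being 0.66 (adjusted p = 0.241) without fust1 37 °C RNA replicate 1. UBP20, a ubiquitin-specific protease, had a TE change of 0.98 ± 0.37 and was not called (edgeR, adjusted p = 0.0565).

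**Figure D3:**
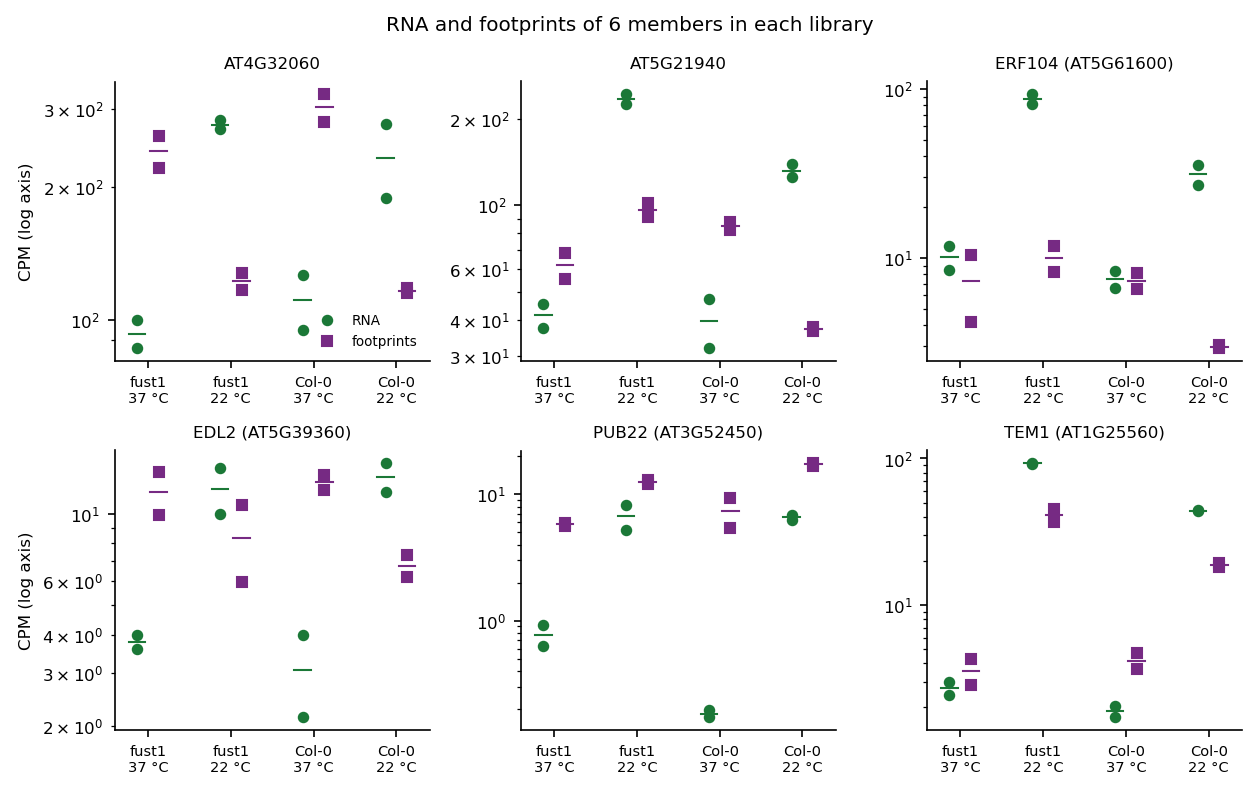
RNA (green circles) and footprint (purple squares) CPM by library totals on log axes in each of the 4 groups, fust1 left of Col-0 and 37 °C left of 22 °C, for 6 members; points are libraries (n = 2 per group and assay) and bars their means. In fust1 the 37 °C RNA points lie below both 22 °C points in all 6, whereas footprints are higher at 37 °C in AT4G32060, overlap in ERF104 and EDL2, and are lower in AT5G21940, PUB22 and TEM1.

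Several members with the smallest adjusted p for TE had no symbol, and no role is given for them. AT4G32060 had 99.9 and 86.3 RNA CPM in fust1 at 37 °C, against 283 and 271 at 22 °C, and 262 and 221 footprint CPM at 37 °C, against 117 and 128 at 22 °C. RNA and footprints moved in opposite directions on CPM, each without overlap. TE rose by 3.32 ± 0.31 (edgeR, adjusted p = 1.28e-06) and footprints by 2.66 ± 0.15 (edgeR, adjusted p = 1.30e-14), a footprint rise that held on library totals (0.98, adjusted p = 1.32e-06). The RNA change of -0.66 ± 0.25 on the TMM scale was not called (edgeR, adjusted p = 0.0550) and on library totals it was -1.57 (adjusted p = 0.000292). In Col-0 it had 95.1 and 127 RNA CPM at 37 °C and 189 and 278 at 22 °C, with 325 and 281 footprint CPM at 37 °C and 115 and 118 at 22 °C.

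AT3G23170, at a lower level, had 13.2 and 14 footprint CPM in fust1 at 37 °C, against 6.06 and 5.30 at 22 °C. Its RNA was 14.3 and 13.1 CPM in fust1 at 37 °C, against 30.1 and 27.2 at 22 °C. Again neither assay overlapped, and TE rose by 3.08 ± 0.31 (edgeR, adjusted p = 2.19e-06). AT5G21940 had 45.4 and 37.4 RNA CPM in fust1 at 37 °C, against 226 and 244 at 22 °C, and 68.5 and 55.5 footprint CPM at 37 °C, against 91.3 and 102 at 22 °C. Both were lower at 37 °C on CPM, RNA the further. Its TE rose by 2.63 ± 0.26 (edgeR, adjusted p = 1.93e-06), while its footprint change was 1.04 ± 0.15 on the TMM scale (edgeR, adjusted p = 1.04e-06) and the opposite, -0.64 (adjusted p = 0.000549), on library totals. In the RefSeq annotation the spans of AT4G32060 and AT5G21940 overlap those of other genes (AT4G32050 and AT5G21930), as do those of ADH1, KCS2, GSTF11, NRPA1, RPA2, ASFT and AT5G39980 among the members named here. Without stated strand use, reads of overlapping genes cannot be told apart.

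AT4G21445, also without a symbol, kept its footprints in Col-0, with 41.9 and 43.2 CPM at 37 °C and 41.5 and 42.1 at 22 °C. In fust1 its footprints were 32.0 and 24.6 CPM at 37 °C, against 52.1 and 43.8 at 22 °C, and its RNA was 4.61 and 5.01 CPM at 37 °C, against 23.2 and 17.1 at 22 °C. Both were lower at 37 °C there without overlap on CPM, and TE rose by 2.07 ± 0.34 (edgeR, adjusted p = 0.00023). On the TMM scale the fust1 footprints of AT4G21445 were called higher, by 0.91 ± 0.17 (edgeR, adjusted p = 5.39e-05). AT2G44940 and AT1G72910 were members at the other end, where almost all RNA was gone. AT2G44940 had 0.410 and 0.448 RNA CPM in fust1 at 37 °C, against 16.1 and 21.9 at 22 °C, and 1.53 and 1.51 footprint CPM at 37 °C, against 11.2 and 13.4 at 22 °C. Its TE rose by 3.17 ± 0.52 (edgeR, adjusted p = 0.000249). AT1G72910 had 1.23 and 1.88 RNA CPM in fust1 at 37 °C, against 99.5 and 77.1 at 22 °C, with 0.818 and 0.419 footprint CPM at 37 °C, against 2.23 and 5.80 at 22 °C. Its RNA fell by 4.89 ± 0.35 on the log2 scale (edgeR, adjusted p = 1.68e-06). The TE rise of 3.85 ± 0.78 (edgeR, adjusted p = 0.00138) became 3.24 (adjusted p = 0.0509) without fust1 37 °C footprint replicate 1. AT2G19650 had a single RNA read in fust1 at 37 °C, against 242 reads at 22 °C, and 32 footprint reads at 37 °C, against 301 at 22 °C. Its TE call rests on that read, and it ended without fust1 37 °C footprint replicate 1. AT5G14650 had 0 RNA reads in fust1 at 37 °C, against 69 at 22 °C, and 51 footprint reads at 37 °C, against 179 at 22 °C, and it too was called higher in TE.

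Among 6 members of detoxification and redox metabolism, TE in fust1 was called higher in 3 (background 12.5 %). All 6 had a Col-0 footprint ratio of at least 0.5, against 49 of all 119 members and a background of 26.3 %. The rule used these Col-0 values, so nothing is read from that count. NUDT21, a nudix hydrolase, had 6.67 and 9.04 RNA CPM in fust1 at 37 °C, against 29.9 and 28.0 at 22 °C, and 9.50 and 8.97 footprint CPM at 37 °C, against 12.8 and 14.8 at 22 °C. Neither assay overlapped on CPM, RNA being the further down, and TE rose by 2.05 ± 0.38 (edgeR, adjusted p = 0.000643). On the TMM scale the footprint change of NUDT21 was the opposite, 1.09 ± 0.23 (edgeR, adjusted p = 0.000197). GSTF11, a glutathione S-transferase, kept 15.1 and 16.5 footprint CPM at 37 °C in Col-0 (18.4 and 20.0 at 22 °C). In fust1 it had 4.29 and 5.03 at 37 °C, against 22.0 and 24.5 at 22 °C. TE rose in fust1 by 1.95 ± 0.39 (edgeR, adjusted p = 0.0013). OXS3, a stress tolerance gene, was called in TE (1.95 ± 0.62, edgeR, adjusted p = 0.0254) and lost the call on library totals (1.18, adjusted p = 0.159) and in 5 of 8 fits without 1 library. GLYI4, a glyoxalase, kept its footprints on CPM in both genotypes, 19.7 and 23.1 CPM in fust1 at 37 °C, against 19.8 and 24.9 at 22 °C. On the TMM scale the fust1 footprint change of GLYI4 was 1.62 ± 0.17 (edgeR, adjusted p = 4.93e-09). Its RNA was 5.54 and 1.25 CPM in fust1 at 37 °C, against 2.05 and 12.1 at 22 °C, which overlapped, and the TE change of 1.76 ± 0.84 was not called (edgeR, adjusted p = 0.145). GSTU25 and MDAR3 were not called either.

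Suberin and the Casparian strip are the barriers that seal root cell walls, and 5 members belong to the making of such walls. KCS2, which elongates the fatty acids of suberin, had 4.10 and 1.79 RNA CPM in fust1 at 37 °C, against 9.43 and 15.2 at 22 °C, and 14.7 and 15.4 footprint CPM at 37 °C, against 17.6 and 23.0 at 22 °C. Its TE rose by 2.41 ± 0.43 (edgeR, adjusted p = 0.000499). KCS2 footprints, lower on CPM, were called higher on the TMM scale (1.25 ± 0.19, edgeR, adjusted p = 2.49e-06). CASP2, a Casparian strip protein, had 13.3 and 13.8 footprint CPM in fust1 at 37 °C, against 16.5 and 25.2 at 22 °C. On the TMM scale its footprints were called higher, by 1.06 ± 0.23 (edgeR, adjusted p = 0.000257). Its RNA was 2.67 and 0.179 CPM at 37 °C, against 1.54 and 6.49 at 22 °C, so the RNA libraries overlapped and the TE change of 1.67 ± 0.94 was not called (edgeR, adjusted p = 0.211). ASFT (RWP1), which attaches ferulate to suberin, lost footprints with its RNA, having 3.99 and 3.02 footprint CPM in fust1 at 37 °C, against 46.0 and 67.8 at 22 °C. Its TE call (2.00 ± 0.72, edgeR, adjusted p = 0.0459) ended on library totals (1.25, adjusted p = 0.247) and in 5 of 8 fits without 1 library. The TE of DIR6, a dirigent protein, was not called.

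The root markers differed between replicates in the same way as the RNA of several of these genes. Summed over the 8 root markers, RNA was 30.2 and 8.50 CPM in fust1 replicates 1 and 2 at 37 °C, against 59.2 and 115 CPM at 22 °C. Of the 8, 7 were above 0 in both fust1 37 °C RNA libraries, with RHS12 at 0, and EXPA7 was at 0 in fust1 22 °C RNA replicate 1. Root marker footprints summed to 36.6 and 28.9 CPM at 37 °C, against 193 and 274 CPM at 22 °C. In Col-0 the root marker RNA was 18.3 and 14.1 CPM at 37 °C, against 98.1 and 124 CPM at 22 °C, and the footprints 12.8 and 14.4 CPM at 37 °C, against 249 and 245 CPM at 22 °C. In whole seedlings fewer root cells and less RNA per root cell cannot be told apart, and the part of root content in these results was not tested.

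Cell division and the nucleus gave 4 members. CYCB1;1, a cyclin of mitosis, had 4.41 and 4.21 RNA CPM in fust1 at 37 °C, against 9.74 and 15.6 at 22 °C, and 6.13 and 6.46 footprint CPM at 37 °C, against 27.0 and 28.8 at 22 °C. PLE (MAP65-3), which holds together the microtubules of the dividing cell's phragmoplast, had 5.74 and 4.39 RNA CPM in fust1 at 37 °C, against 26.6 and 28.8 at 22 °C, and 3.17 and 3.27 footprint CPM at 37 °C, against 30.7 and 32.2 at 22 °C. Both genes were lower at 37 °C in both assays with no overlap on CPM. On the TMM scale CYCB1;1 passed neither test, while PLE fell by 1.53 ± 0.36 in RNA (edgeR, adjusted p = 0.00679) and by 1.61 ± 0.24 in footprints (edgeR, adjusted p = 1.61e-06). The PLE RNA call ended in the edgeR fit without fust1 37 °C RNA replicate 2 (-1.41, adjusted p = 0.0624). The TE changes of CYCB1;1 and PLE, 0.15 ± 0.43 (edgeR, adjusted p = 0.829) and -0.08 ± 0.43 (edgeR, adjusted p = 0.915), were not called. In Col-0 at 37 °C their RNA was lower still, 1.11 and 0.292 CPM for CYCB1;1 and 3.08 and 0.876 CPM for PLE. NRPA1, the largest subunit of RNA polymerase I, had 14.7 and 7.07 RNA CPM in fust1 at 37 °C, against 32.5 and 50.5 at 22 °C, and 25.1 and 33.3 footprint CPM at 37 °C, against 51.5 and 61.5 at 22 °C. Its TE rose by 1.74 ± 0.36 (edgeR, adjusted p = 0.00162), which became 0.99 (adjusted p = 0.0757) on library totals. NRPA1 footprints, lower on CPM, were called higher on the TMM scale (0.73 ± 0.17, edgeR, adjusted p = 0.000468). RPA2, a subunit of the protein that coats single-stranded DNA, had a TE change of 1.18 ± 0.47 and was not called (edgeR, adjusted p = 0.0699).

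Members of low-oxygen metabolism had more footprints at 37 °C in fust1, called in 4 of 4 on the TMM scale (background 27.6 %). On library totals 2 of 4 were called (background 3.69 %). When oxygen is short, sucrose synthase feeds sugar into glycolysis, pyruvate decarboxylase and alcohol dehydrogenase ferment the pyruvate, and haemoglobin 1 scavenges nitric oxide. ADH1, the alcohol dehydrogenase, had 44.6 and 15.2 RNA CPM in fust1 at 37 °C, against 6.66 and 8.83 at 22 °C. Its footprints were 122 and 135 CPM in fust1 at 37 °C, against 30.4 and 38.5 at 22 °C. Both assays were higher at 37 °C in fust1 without overlap, RNA by 2.85 ± 0.59 on the log2 scale (edgeR, adjusted p = 0.00723) and footprints by 3.58 ± 0.23 (edgeR, adjusted p = 5.37e-10), and the TE change of 0.73 ± 0.73 was not called (edgeR, adjusted p = 0.494). This edgeR RNA call ended without fust1 22 °C RNA replicate 1 (2.75, adjusted p = 0.0616) or replicate 2 (2.96, adjusted p = 0.0521). In Col-0, by the rule, ADH1 RNA fell, with 4.80 and 2.53 CPM at 37 °C and 13.8 and 37.4 at 22 °C, while footprints were 45.9 and 24.8 CPM at 37 °C and 46.9 and 59.6 at 22 °C.

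PDC1 (AT4G33070), the pyruvate decarboxylase, had 24.9 and 6.45 RNA CPM in fust1 at 37 °C, against 2.77 and 8.19 at 22 °C, and 77.0 and 91.0 footprint CPM at 37 °C, against 44.6 and 60.8 at 22 °C. Its RNA libraries overlapped and its footprint libraries did not. Footprints rose by 2.35 ± 0.17 (edgeR, adjusted p = 6.22e-12), also on library totals (0.67, adjusted p = 0.00144). The RNA change of 2.43 ± 0.70 was called (edgeR, adjusted p = 0.0275), but not on library totals (1.51, adjusted p = 0.110), nor without fust1 22 °C RNA replicate 1 (1.93, adjusted p = 0.125), nor without fust1 37 °C RNA replicate 1 (1.26, adjusted p = 0.157). SUS4, the sucrose synthase, had 14.3 and 3.67 RNA CPM in fust1 at 37 °C, against 1.95 and 4.25 at 22 °C, which overlapped and was not called (2.43 ± 0.85, edgeR, adjusted p = 0.0548). Its footprints were 29.1 and 32.2 CPM at 37 °C, against 24.3 and 28.1 at 22 °C, a change of 1.91 ± 0.18 on the TMM scale (edgeR, adjusted p = 3.48e-10) and of 0.23 (adjusted p = 0.245) on library totals.

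HB1, the haemoglobin, had 11.5 and 5.55 RNA CPM in fust1 at 37 °C, against 2.46 and 5.96 at 22 °C, and 14.6 and 15.9 footprint CPM at 37 °C, against 10.4 and 13.3 at 22 °C. Its RNA libraries overlapped, its footprint libraries did not. The RNA change of 1.94 ± 0.51 was called (edgeR, adjusted p = 0.0124), but not on library totals (1.01, adjusted p = 0.146), nor without fust1 22 °C RNA replicate 1 (1.52, adjusted p = 0.0811) or fust1 37 °C RNA replicate 1 (1.41, adjusted p = 0.103). AT1G19530, without a symbol, had the largest rise of all 119 members in both assays. It had 55.4 and 14.1 RNA CPM in fust1 at 37 °C, against 1.64 and 7.55 at 22 °C, and 207 and 196 footprint CPM at 37 °C, against 14.3 and 18.4 at 22 °C. Both assays were higher at 37 °C without overlap, footprints by 5.31 ± 0.17 (edgeR, adjusted p = 9.98e-21) and RNA by 3.84 ± 0.90 (edgeR, adjusted p = 0.0194). That edgeR RNA call ended without fust1 22 °C RNA replicate 1 (3.19, adjusted p = 0.0722) and with only the fust1 libraries in the fit (3.82, adjusted p = 0.118). In Col-0 its footprints were 84.2 and 86.3 CPM at 37 °C and 28.2 and 24.9 at 22 °C, while its RNA was 9.94 and 4.67 CPM at 37 °C and 10.6 and 21.6 at 22 °C.

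These 4 members with RNA called higher (ADH1, PDC1, HB1 and AT1G19530) are all of those called higher among the 119. All of them, and SUS4, had more RNA in replicate 1 than in replicate 2 in fust1 at 37 °C, and all had more in replicate 2 than in replicate 1 in fust1 at 22 °C. The TE changes of PDC1 (-0.07 ± 0.77), SUS4 (-0.52 ± 0.94), HB1 (0.11 ± 0.58) and AT1G19530 (1.48 ± 0.92) were not called (edgeR, adjusted p = 0.959, 0.726, 0.913 and 0.270). The root markers lay the same way in these libraries, and the part of root content in the RNA of these genes was not tested.

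**Figure D4:**
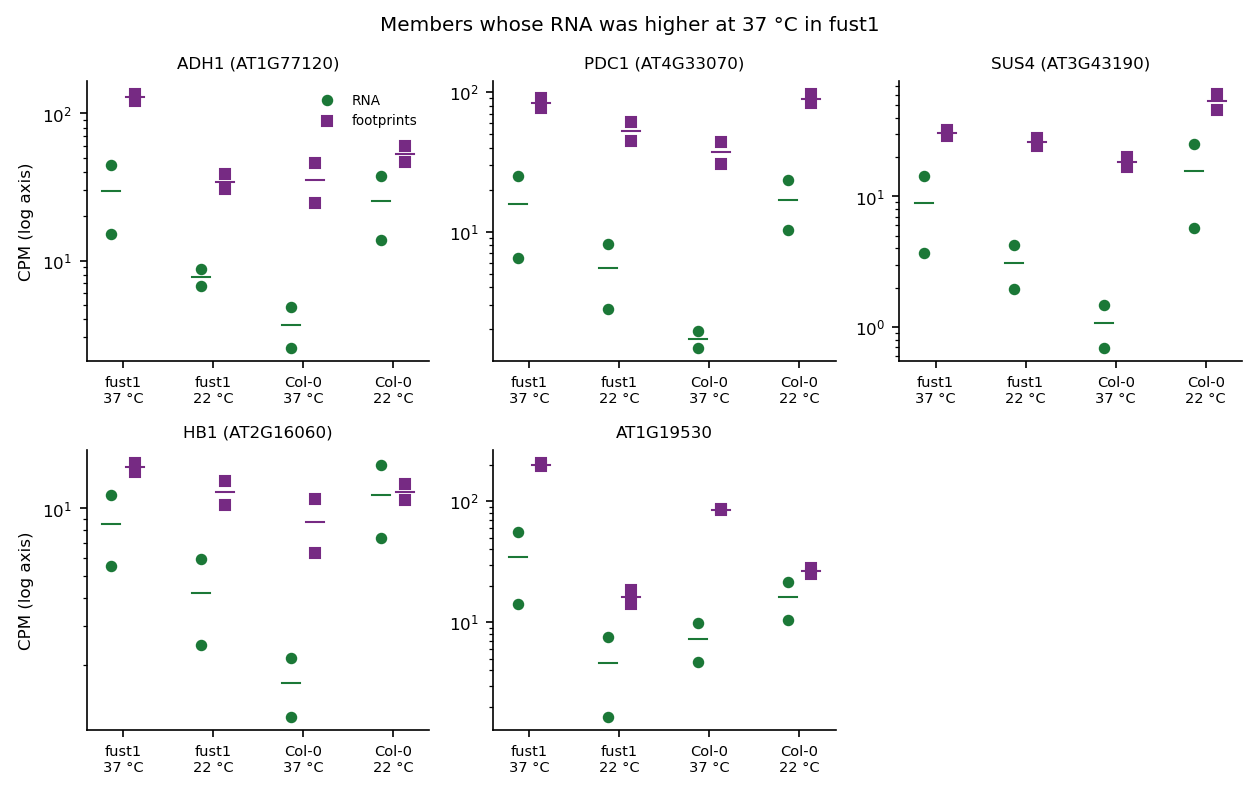
RNA (green circles) and footprint (purple squares) CPM by library totals on log axes in each of the 4 groups for ADH1, PDC1, SUS4, HB1 and AT1G19530; points are libraries (n = 2 per group and assay) and bars their means. Mean RNA is higher at 37 °C in fust1 and lower at 37 °C in Col-0 in all 5, and the fust1 37 °C RNA libraries differ widely from each other, as in ADH1 with 44.6 and 15.2 CPM.

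At the low end of TE stood members with hardly any RNA in Col-0 at 37 °C. AT4G38062 had 0.615 and 1.25 RNA CPM in fust1 at 37 °C, against 9.23 and 13.5 at 22 °C, and 0 and 0.168 footprint CPM at 37 °C, against 14.1 and 10.8 at 22 °C. AT5G52950 had 0.820 and 0.537 RNA CPM in fust1 at 37 °C, against 4.82 and 8.30 at 22 °C, and 0 and 0.0838 footprint CPM at 37 °C, against 3.68 and 6.08 at 22 °C. TRM34 had 0.513 and 0.627 RNA CPM in fust1 at 37 °C, against 7.90 and 6.81 at 22 °C, and 0 footprints at 37 °C in both libraries, against 4.04 and 4.51 CPM at 22 °C. In these genes footprints were down further than RNA in fust1, the opposite of the pattern that the rule took from a few Col-0 reads. AT4G12870 had 5.13 and 2.51 RNA CPM in fust1 at 37 °C, against 4.72 and 3.94 at 22 °C, and 1.84 and 4.78 footprint CPM at 37 °C, against 20.6 and 18.0 at 22 °C. Its TE change of -1.58 ± 0.81 was not called (edgeR, adjusted p = 0.160).

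The members with the widest Col-0 margins that could be computed also had few reads. AT4G33980 had 1 RNA read over both Col-0 37 °C libraries, AT2G19650, RTFL8 and AT1G70340 had 2 each, and PUB22 had 4. In fust1 the footprint ratio was 0.774 times the RNA ratio in AT4G33980 0.764 times in AT1G70340, 2.49 times in RTFL8, 4.02 times in PUB22 and 36.1 times in AT2G19650. Of the 5, PUB22 and AT2G19650 were called higher in TE.

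Apart from the rule, the members were genes of low RNA level. Their median RNA in fust1 at 22 °C was 7.35 CPM, against 21.4 CPM in the other genes whose RNA fell, and their median footprint level was 11.8 CPM, against 16.5 CPM. The ratio of footprint CPM to RNA CPM in fust1 at 22 °C had a median of 1.29 in the members, against 0.781 in the other genes. They lay on all 5 chromosomes (28, 21, 23, 23 and 24 members on chromosomes 1 to 5), with 0 pairs of neighbours in gene order. The span of 25 members (21.0 %) overlapped that of another annotated gene, against 30.5 % of the other genes.

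Of 202 genes in 14 lists of stress, hormone, division, decay, clock and light genes, 4 (1.98 %) were members, ERF104, PUB22, CYCB1;1 and PLE. Over all 27628 genes the share was 0.431 %, but only 7061 of these met the level and RNA conditions. The shares are thus not over like genes, and nothing is read from their difference. The lists do not hold every gene of a family, and the members WRKY36 and SAUR29 are in none of them. The list of ethylene response and CBF factors had TE called higher in fust1 in 11 of 15 tested genes, with a median log2 change of 3.35, beside 0.01 over all genes. Of its 18 genes 2 met the level and RNA conditions of the rule. The ubiquitin ligases of the rapid stress response had 5 of 7 called higher (median 2.10), zinc finger factors 10 of 14 (median 2.38), WRKY factors 9 of 16 (median 1.67) and touch, calcium and kinase genes 9 of 12 (median 2.11). Mitosis and cytokinesis genes, 20 of 22 of which met the level and RNA conditions, had 0 called higher by edgeR (0 also at an unadjusted p under 0.05 and by DESeq2) and 3 called lower (median -1.25). The alpha expansins, which loosen cell walls, had 2 of 9 called higher and 2 lower (median -0.69). Jasmonate genes had 6 of 16 called higher and 1 lower (median 1.11), auxin-induced genes 6 of 21 and 0 (median 0.54) and light signalling factors 4 of 11 and 1 (median 0.93). Clock genes had 1 of 12 called higher and 3 lower (median -0.01), decay genes 2 of 14 and 4 (median -0.16) and DNA replication genes 1 of 11 and 2 (median 0.53). Cytokinin type-A response regulators had 0 of 9 called higher by edgeR (0 also at an unadjusted p under 0.05 and by DESeq2) and 1 lower (median 0.54). The background for these counts is the 12.5 % higher and 15.7 % lower given above.

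Setting the genotypes side by side for the members uses the Col-0 libraries that chose them, so these values carry no test. The median log2 heat change on the TMM scale was -1.53 in fust1 and -2.77 in Col-0 for RNA, -0.19 in fust1 and 0.55 in Col-0 for footprints, and 1.48 in fust1 and 3.19 in Col-0 for TE. At 37 °C RNA was higher in fust1 than in Col-0 in 99 of 119 members (median log2 difference 0.82) and footprints in 21 (median -0.54). At 22 °C, RNA was higher in fust1 in 39 members (median -0.29) and footprints in 63 (median 0.06).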

How the data were processed

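RNA-seq (poly(A) RNA by oligo-dT) and Ribo-seq (RNase I footprints, sizing columns, depletion of ribosomal RNA) were made from whole seedlings, per the labels. The authors deposited raw counts (whole numbers, not normalized) for 27628 genes in 16 libraries. The tools listed in the submitters' processing notes are fastp 0.19.7, Bowtie 1.0.1, STAR 2.7.3a and featureCounts 1.6.2, with the TAIR10 genome; which tool served which assay, the counted feature, strand use and any footprint length filter are not stated, so a count may hold reads outside the coding sequence. Symbols came from a RefSeq table (TAIR10.1), used for names, neighbours and overlaps only; all 119 members matched. No sequences are shown. A member of the root barrier group is not reported here.

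CPM was 1e6 times the count over the library total, with no pseudocount. Tests used edgeR 4.0.16 in R 4.3.3 (quasi-likelihood, robust, TMM, filterByExpr with minimum count 10 by group, Benjamini-Hochberg over all genes of an assay, calls at 0.05): 19340 genes for RNA, 18445 for footprints and 17816 for TE, the interaction of assay and heat over all 16 libraries. All 119 members passed these filters. Standard errors (SE) were taken from the F statistic, as the size of the log2 change divided by its square root. With 2 libraries per group, the spread behind the p-values was pooled over the groups of both genotypes, with information from other genes. The Col-0 libraries that chose the members thus add to it. Counting error is a part of this spread, and PCR copies are counted as reads. Only heat in fust1 was tested, because Col-0 values chose the members. On simulated data the TE test recovered 83.0 % of genes changed 4-fold and 13.0 % of those changed 2-fold among 16587 genes, with 11.1 % of its calls on unchanged genes. Simulated RNA did not change with heat, and the changed genes had a mean of at least 5 RNA CPM. By contrast, 64 of 119 members had at most 30 RNA reads over both fust1 37 °C libraries. These rates therefore do not describe the test on the members.

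The members, the 14 lists and the role groups were chosen with earlier results of these data known. Genes named by rule were members with the smallest TE adjusted p (8), the highest fust1 footprints at 37 °C (8), the highest fust1 RNA at 22 °C (6), the lowest TE change (5), the widest Col-0 margin (5), list members, the genes at the threshold and those without Col-0 RNA reads at 37 °C; the rest were named for their roles after their values were seen. Alternatives were RLE scaling, library totals, DESeq2 1.42.0, no filter beyond 1 count, nuclear genes, fust1 libraries alone, a replicate block, each library left out, and other forms of the rule. A crossed block, the members with over 30 reads, the summed shares without 5 members and the omission of Col-0 libraries from the rule were added after seeing the data.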

Additional observations from a re-analysis of the deposited data

Results flagged for a closer look

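On CPM by library totals, RNA or footprints of 8 members moved in opposite directions with heat in fust1 and in Col-0. In neither genotype did the 37 °C and 22 °C libraries overlap. The difference between genotypes was not tested, since Col-0 chose the members. For RNA these were AT1G19530, with a ratio of 37 °C over 22 °C (CPM by library totals) of 7.55 in fust1 and 0.455 in Col-0, and ADH1, with 3.86 in fust1 and 0.143 in Col-0. For footprints, 3 genes were higher at 37 °C in fust1 and lower in Col-0: ADH1 (3.73 in fust1, 0.664 in Col-0), PDC1 (AT4G33070, 1.59 in fust1, 0.412 in Col-0) and SUS4 (1.17 in fust1, 0.344 in Col-0). On the TMM scale these footprint changes were above 0 in both genotypes. Their log2 values in fust1 and Col-0 were 3.58 and 1.22 for ADH1, 2.35 and 0.53 for PDC1, and 1.91 and 0.26 for SUS4. The RNA changes stayed opposite there, 3.84 and -0.11 for AT1G19530 and 2.85 and -1.76 for ADH1.

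The footprints of 4 members without symbols were lower at 37 °C in fust1 and higher in Col-0 on CPM. AT5G21940 had a footprint ratio of 0.642 in fust1 and 2.27 in Col-0. AT3G05600 had 0.545 in fust1 and 1.53 in Col-0. AT2G33793 had 0.423 in fust1 and 1.75 in Col-0. AT5G19340 had 0.753 in fust1 and 1.16 in Col-0. For the last 3 the Col-0 37 °C RNA libraries were far apart, as in AT3G05600 with 7.54 and 0.584 CPM, and the part of that spread in their membership was not tested. On the TMM scale the footprint changes of all 4 were above 0 in both genotypes. Their log2 values in fust1 and Col-0 were 1.04 and 2.98 for AT5G21940 and 0.81 and 2.42 for AT3G05600. They were 0.43 and 2.63 for AT2G33793, and 1.27 and 2.00 for AT5G19340. In fust1 all but AT2G33793 were called higher on that scale.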

How the results depend on the processing

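On library totals 90 members were lower in RNA (51.3 % of all genes), 92 lower (82.0 %) and 6 higher (3.69 %) in footprints, and 24 higher in TE (3.61 %). Among the 35 members with over 30 Col-0 37 °C RNA reads, 14 were lower in RNA, 5 lower and 26 higher in footprints, and 21 higher in TE. With a replicate block, 50 members were lower in RNA, 43 lower and 38 higher in footprints, and 35 higher in TE; same-numbered fust1 libraries at 37 °C and 22 °C did not deviate together (correlation -0.26 for RNA, -0.06 for footprints; between RNA and footprints -0.03 at 37 °C and 0.229 at 22 °C), so the numbers were not taken as pairs, and the crossed block gave 60 lower in RNA. Without 1 library, RNA lower ran from 34 to 49, footprints lower from 34 to 42, footprints higher from 35 to 36, TE higher from 27 to 49. The rule took 237 genes at 3 times, 50 at 6 times, 238 on TMM-adjusted CPM, and 105 to 466 without 1 Col-0 library. These counts moved under no other alternative by over 1.5 times. For the blocks and the fits without 1 library no share over all genes is given. The backgrounds of the main fit do not apply to those counts.

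Of 783 values of 58 gene results under alternatives, 707 kept direction and call, 47 lost the call, 15 gained one and 14 reversed. Among these 58 results, the reversals on library totals were CYCB1;1 TE (-0.59), ADH1 TE (-0.045), HB1 TE (-0.65), and AT5G21940 (-0.64) and ERF104 (-0.47) footprints. The scale also set the direction of footprint changes outside this list. For example, PUB22, NUDT21, KCS2, NRPA1, AT4G21445 and CASP2 had fust1 footprint ratios of 0.464, 0.668, 0.743, 0.517, 0.590 and 0.650 on CPM. All of these were called higher on the TMM scale. Without 1 library the TE change ran from -0.11 to 0.37 in CYCB1;1, -0.21 to 0.055 in PLE, -0.93 to 1.103 in PDC1 (AT4G33070), -1.17 to 0.66 in SUS4 and -0.54 to 0.64 in HB1, none of them called. Where only 1 library of a group is left, it is assumed to vary like the other groups. The cause of these shifts was not tested beyond the scaling itself. Depth limits the 47 members with at most 10 Col-0 37 °C RNA reads, and for these the counting error alone is large.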
